A study of Mus musculus with 2 samples.

Results

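Tumour necrosis factor (TNF), its receptors and related ligands were described through 9 genes chosen by symbol from the 32285 genes of 2 single-cell libraries. They are Tnf itself, its receptors Tnfrsf1a and Tnfrsf1b, the ligands Tnfsf9, Tnfsf10 and Tnfsf13b, and the receptors Cd40, Fas and Tnfrsf12a. All 9 were found in both libraries. The tumours came from KPPC mice, a genetically engineered model of pancreatic ductal cancer. The labels give both groups this name and do not spell out the alleles or the Cre behind it. The mice were 6 weeks old and were treated for 14 days, 1 group with vehicle and the other with 50 mg/kg of takinib, a compound that inhibits the kinase TAK1. Each group gave 1 library, and the labels do not say how many mice each held. The treatments could therefore not be tested against each other, no difference has a replicate check, and library and treatment cannot be told apart.

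TNF is made as a membrane protein by activated myeloid cells and lymphocytes and is shed by the protease ADAM17. It binds TNFR1, which most cells carry and which can signal to NF-kB or to cell death, and TNFR2, which is found mainly on leukocytes and endothelium. TAK1 is recruited to the TNFR1 complex and passes the signal to the IKK and MAP kinases. The related ligands and receptors share the TNF fold or cysteine-rich domains and act in T cell costimulation, B cell survival, apoptosis and wound repair.

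Libraries differed in ways that touch the values below. After filters 9558 vehicle and 25183 takinib cells were kept, with a median of 3556 and 2887 UMIs (unique molecular identifiers, read here as captured RNA molecules). Among kept cells 359 barcodes occurred in both libraries. The median mitochondrial share was 8.70% in vehicle and 1.79% in takinib. Vehicle held 3087 cells with Y-linked but no Xist UMIs and 1075 with Xist but no Y-linked UMIs, so it holds cells of both sexes, while takinib held 14324 cells with Xist and 0 Y-linked UMIs. The makeup by sex therefore also cannot be told apart from treatment. Neutrophil-like cells were 2.84% of vehicle cells and 47.0% of takinib cells. The summed level of S100a8 and S100a9, abundant neutrophil transcripts, was 91.6 CPM (UMIs of a gene per 1000000 UMIs) in vehicle and 12256 CPM in takinib epithelial-like cells. It was 11773 CPM in takinib erythroid-like cells, so neutrophil transcripts were counted in takinib barcodes of other types. Cell classes carry the ending "-like" because they were named from marker genes, and square brackets hold 95% intervals, which cover counting error only. Epithelial-like cells of both libraries included the cluster led by Cdkn2a, Hmga2 and Krt7 (794 vehicle and 744 takinib cells). Within this class, takinib alone had 218 cells led by Gkn2, Gkn1 and Tff1, which are genes of stomach mucosa. These genes were also among the leading genes of a larger cluster, led by Tff2, Reg1 and Dmbt1, with 596 vehicle and 784 takinib cells. That cluster stayed unnamed, since its acinar score (0.672) came close to its epithelial score (0.807), and the epithelial-like class leaves it out. Tnf stood at 3.53 CPM in its vehicle cells against 22.5 CPM in its takinib cells.

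The RefSeq table for GRCm38.p6 holds 8 promoters of 7 of the 9 genes, with 2 start sites for Tnfsf13b. The 250 bases before the start site are shown for Tnf, Tnfrsf1b and Fas, those of the 7 genes that were past 2-fold higher over all kept cells. The promoter of Tnfrsf1b holds no match to either motif. Capitals mark matches to the AP-1 motif TGANTCA or to the kappaB consensus with 1 mismatch allowed other than in its first and last 2 letters, on either strand.
Tnf (GRCm38 chr17:35202008-35202257, minus strand): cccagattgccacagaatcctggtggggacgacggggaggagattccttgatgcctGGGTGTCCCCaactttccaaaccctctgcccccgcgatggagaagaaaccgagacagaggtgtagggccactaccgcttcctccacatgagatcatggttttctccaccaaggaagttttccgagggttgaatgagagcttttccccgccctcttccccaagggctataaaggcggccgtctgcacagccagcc
Tnfrsf1b (GRCm38 chr4:145246871-145247120, minus strand): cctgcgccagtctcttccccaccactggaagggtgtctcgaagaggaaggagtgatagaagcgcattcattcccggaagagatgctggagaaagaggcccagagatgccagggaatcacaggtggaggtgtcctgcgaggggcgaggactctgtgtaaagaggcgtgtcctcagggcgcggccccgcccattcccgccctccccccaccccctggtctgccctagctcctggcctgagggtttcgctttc
Fas (GRCm38 chr19:34290409-34290658, plus strand): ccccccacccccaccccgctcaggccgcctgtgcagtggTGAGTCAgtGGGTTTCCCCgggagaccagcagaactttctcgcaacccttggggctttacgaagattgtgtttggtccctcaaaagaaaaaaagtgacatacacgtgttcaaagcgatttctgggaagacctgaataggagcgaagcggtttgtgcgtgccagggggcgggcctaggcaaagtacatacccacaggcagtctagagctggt
An exact kappaB match lay in 0 of the 8 promoters, read over 300 bases from 250 before to 50 after the start site, and in 4.5% of all 32817 promoters. With 1 mismatch 4 of the 8, those of Tnf and Fas and both of Tnfsf13b, held a match, beside 23.7% of all promoters. AP-1 matches lay in 3 of the 8, that of Fas and both of Tnfsf13b, beside 7.81% of all. The start sites of Tnfsf13b lie so close that its promoters overlap and share their matches. In Tnf the inexact kappaB match began at position -194 from the start site. In Fas the AP-1 match began at -211 and the inexact kappaB match at -202. A match is a description of these letters and not a binding site. By the GENCODE annotation of GRCm38 the Tnf gene spans chr17:35199381-35202007, Tnfrsf1a chr6:125349362-125362484, Tnfrsf1b chr4:145213463-145246870 and Fas chr19:34290666-34327772, all protein-coding.

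Over all kept cells, Tnf was 19.6 CPM in vehicle (824 UMIs) and 111 CPM in takinib (13257 UMIs), which is 5.64-fold higher [5.26 to 6.06]. Fas, the death receptor for Fas ligand, was 10.7 against 77.9 CPM, or 7.26-fold higher [6.60 to 7.99]. Tnfrsf1b, which encodes TNFR2, was 53.8 against 225 CPM, or 4.19-fold higher [4.01 to 4.37]. Tnfsf9, which encodes the T cell costimulator 4-1BB ligand, was 12.2 against 35.4 CPM, or 2.91-fold higher [2.66 to 3.20]. These 4 genes were past 2-fold higher, and 2.62% of the 15600 genes with at least 50 UMIs in either library were. Past 2-fold means at least 50 UMIs in either library and a log2 ratio above 1 or below -1 once 10 CPM had been added to each side, takinib over vehicle. On that scale Tnf was at 2.03, and at 1.41 when only the vehicle cells with Xist and no Y-linked UMIs were used. Tnfrsf1a, which encodes TNFR1, was at 98.5 CPM in vehicle and 90.3 CPM in takinib. Tnfsf10, Tnfsf13b, Cd40 and Tnfrsf12a were at 4.43, 5.52, 8.57 and 72.3 CPM in vehicle. In takinib these 4 were at 1.93, 2.87, 4.61 and 42.8 CPM. No gene of the 9 was past 2-fold lower, beside 3.42% of all genes. With only the vehicle cells that had Xist and no Y-linked UMIs, the log2 ratio of Tnfrsf12a was -1.04, against -0.64.

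These totals depend on which cells were captured. In vehicle 75.8% of Tnf UMIs lay in monocyte/macrophage-like cells and 9.10% in neutrophil-like cells. In takinib 62.4% lay in neutrophil-like and 20.6% in monocyte/macrophage-like cells. Fas showed the same shift, from 56.5% in monocyte/macrophage-like and 2.00% in neutrophil-like cells of vehicle to 19.7% and 65.5% in takinib. For Tnfrsf1b the share in neutrophil-like cells was 0.841% in vehicle and 53.5% in takinib. Tnfrsf12a was held by epithelial-like cells in both, 74.0% in vehicle and 60.1% in takinib. Tnfsf10 was held mostly by endothelial-like cells in vehicle, 53.8%, and they held 12.1% in takinib, where 88 such cells were kept against 671.

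**Figure D1:**
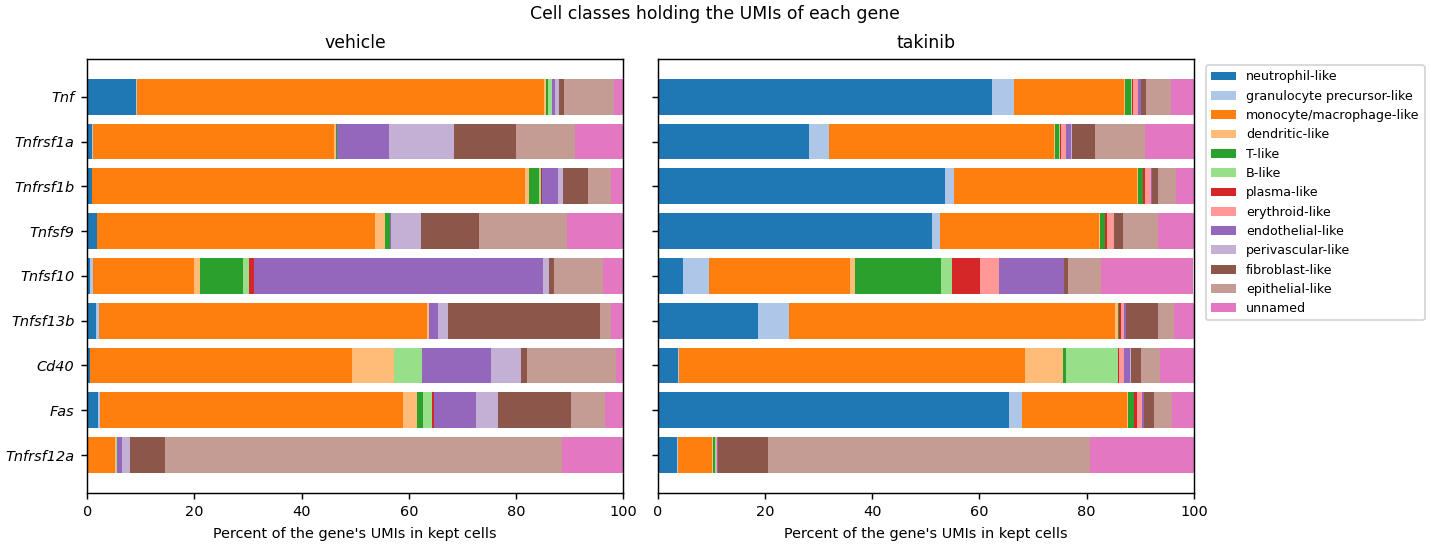
Percent of each gene's UMIs in kept cells that lay in each cell class (x axis, colours), for the 9 genes (y axis) in vehicle (left) and takinib (right). Neutrophil-like cells hold 9.10% of Tnf UMIs in vehicle and 62.4% in takinib, while Tnfrsf12a stays mostly in epithelial-like cells in both.

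Tnf was highest in neutrophil-like cells of both libraries. In vehicle it was 214 CPM there [169 to 269] and 28.7 CPM [26.5 to 31.1] in monocyte/macrophage-like cells. It was 14.9 CPM in B-like, 11.2 in T-like, 10.1 in epithelial-like and 7.86 in dendritic-like cells of vehicle, 4 values whose intervals overlap, and the B-like [5.47 to 32.4] and T-like [3.06 to 28.8] intervals also reach the monocyte/macrophage-like value. Perivascular-like, fibroblast-like and endothelial-like cells of vehicle were at 3.12, 2.56 and 2.09 CPM, also with overlapping intervals. In takinib neutrophil-like cells were at 297 CPM [291 to 303]. Next among the named classes came endothelial-like cells at 119 CPM [93.6 to 150.1] and granulocyte precursor-like cells at 99.2 CPM [91.0 to 108], which overlap. A takinib cluster of 568 cells led by Cd79a, Cd79b and Ighd stood between, at 211 CPM [189.7 to 234]. It was left unnamed because its neutrophil score was close to its B cell score. T-like cells were at 68.8 CPM, monocyte/macrophage-like at 55.1 and epithelial-like at 53.0, and the last 2 of these overlap. Dendritic-like cells were at 47.9 CPM, with an interval [31.3 to 70.2] that overlaps those 3 and the next below. Below them stood erythroid-like cells at 34.3 CPM and fibroblast-like at 30.7, and lowest were plasma-like at 13.5 and B-like at 10.7, with overlap within each of these pairs.

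Of takinib neutrophil-like cells 28.7% had a Tnf UMI, and of vehicle ones 16.6%, at medians of 1795 and 1213 UMIs. After thinning each cell to 1000 UMIs the shares were 17.2% [16.5 to 17.9] and 14.4% [10.4 to 19.1], which overlap. In takinib erythroid-like cells, red cell precursors that serve here as a background, 12% of cells had a Tnf UMI at a median of 4848 UMIs and 4.0% did after thinning. This background class also held 3249 CPM of macrophage markers, against 612 CPM in epithelial-like and 12535 CPM in monocyte/macrophage-like cells of takinib. The thinned share was 3.77% in takinib monocyte/macrophage-like, 4.28% in T-like, 6.80% in epithelial-like and 10.2% [8.03 to 12.7] in granulocyte precursor-like cells. The erythroid interval [2.46 to 6.11] overlaps those of the first 3 of these classes. It lies below those of granulocyte precursor-like and neutrophil-like cells, so from shares of cells alone Tnf stood above background in both. By CPM the monocyte/macrophage-like interval [53.1 to 57.2] lay above the erythroid-like one [28.7 to 40.6]. With neutrophil RNA subtracted these classes were at 37.0 and 4.49 CPM of Tnf.

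**Figure D2:**
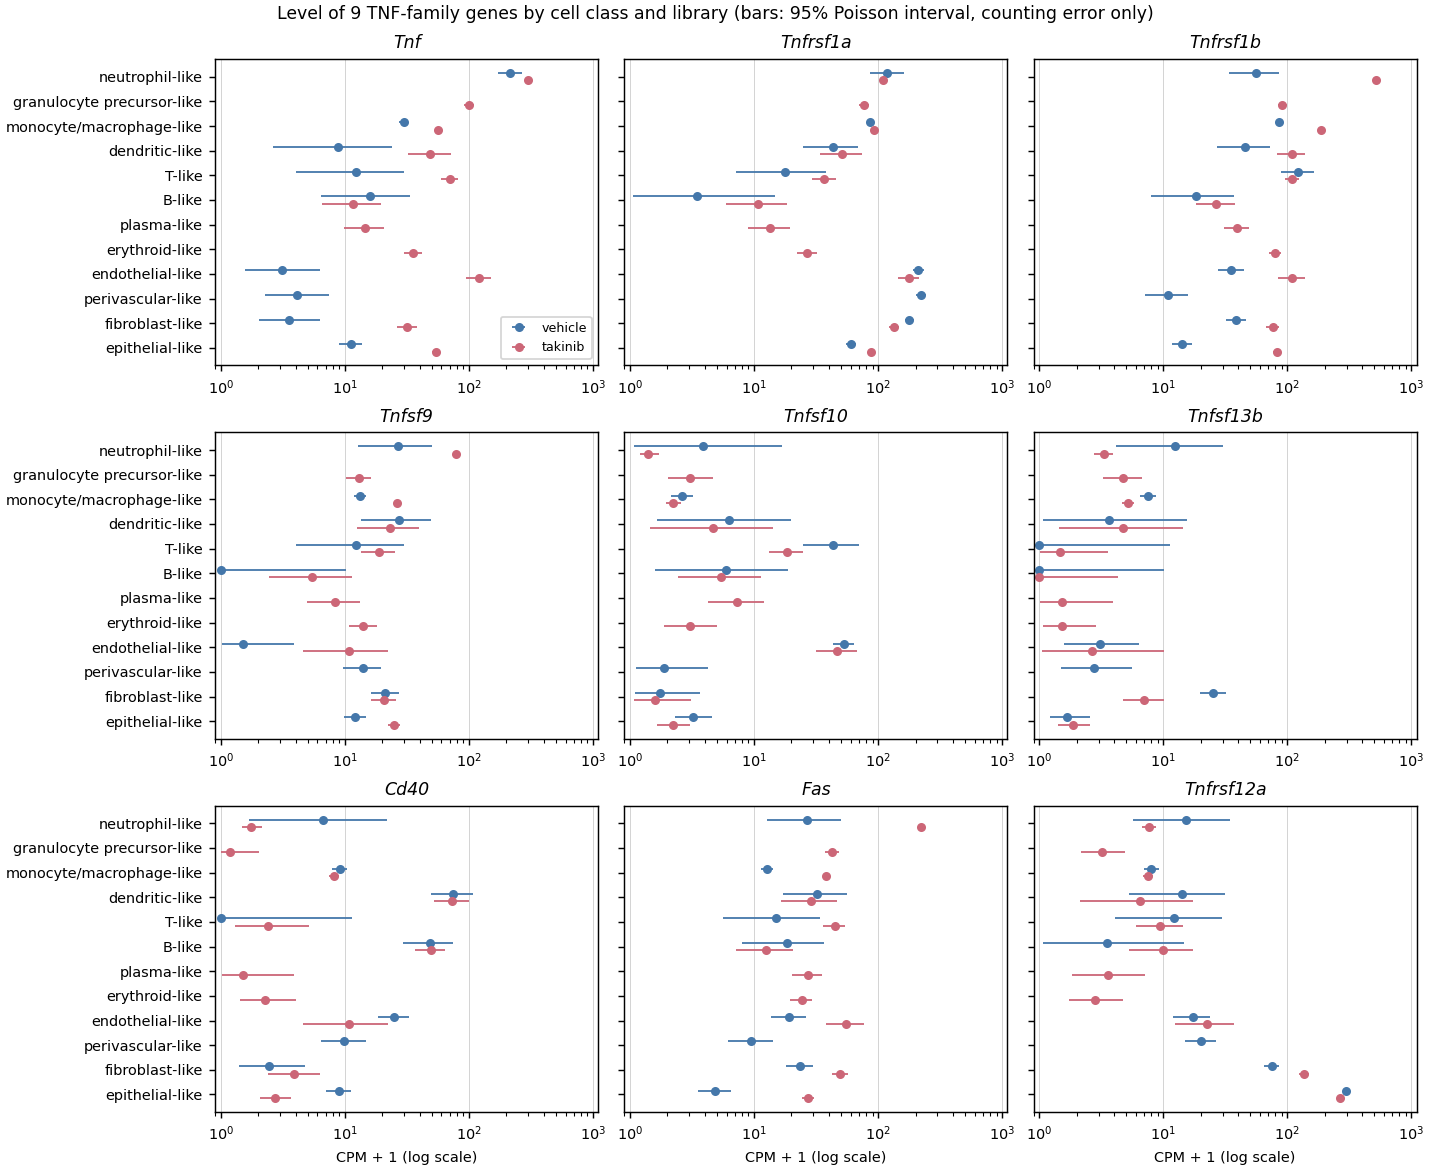
Level of each of the 9 genes (panels) as CPM plus 1 on a log axis, by cell class (y axis) in vehicle (blue) and takinib (red), with 95% Poisson intervals for counting error. Tnf is highest in neutrophil-like cells of both libraries, Tnfrsf12a in epithelial-like, Cd40 in dendritic-like and Tnfsf10 in endothelial-like cells.

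In neutrophil-like cells the clearest differences were in Tnfrsf1b and Fas. Tnfrsf1b was 54.3 CPM in vehicle (19 UMIs) and 518 CPM in takinib (14437 UMIs), 9.54-fold higher [6.11 to 15.9]. Fas was 25.7 against 219 CPM, 8.52-fold higher [4.49 to 18.7] from 9 vehicle UMIs. Tnfsf9 was 25.7 against 77.8 CPM, 3.02-fold higher [1.59 to 6.62], also from 9 vehicle UMIs. Thus 3 of the 7 genes with 50 counts were past 2-fold higher, beside 4.49% of all genes in this class, and 0 were past 2-fold lower, beside 15.9%. Tnf was 214 against 297 CPM, 1.38-fold higher [1.10 to 1.76] and not past 2-fold. Tnfrsf1a was 117 against 109 CPM, and the interval of its ratio [0.687 to 1.30] covers 1.

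The neutrophil-like cells of the libraries were mostly different clusters. Of the 271 vehicle cells 261 lay in the cluster led by Ctsk, Mmp9 and Siglecf. Most takinib cells lay in the clusters led by Ccl4, Cstdc4 and Ccl3 (5267 cells), by Ppy, Lst1 and Chil1 (4383) and by Retnlg, Ins2 and Ifitm1 (2007). Ppy and Ins2 are islet hormone genes, and they led these clusters beside neutrophil markers. Of these clusters the Siglecf cluster was the only one held by both libraries in some number, 261 and 175 cells. Within it Tnf was 223 CPM in vehicle and 272 in takinib, with a ratio of 1.22 [0.892 to 1.67]. Tnfrsf1b was 50.6 against 123 CPM there, 2.44-fold higher [1.37 to 4.55] from 17 and 44 UMIs. Fas was 20.8 against 36.5 CPM [ratio 0.649 to 5.18], and Tnfsf9 26.8 against 14.0 CPM [ratio 0.138 to 1.74], so the direction was not resolved at this depth. In the shared cluster the log2 ratio of Tnfrsf1b was 1.14, that of Fas 0.59 and that of Tnfsf9 -0.61, against 3.04, 2.68 and 1.30 in the whole class.

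Within takinib the neutrophil-like clusters differed among themselves. The Ccl4 and Ccl3 cluster, which is led by genes of inflammatory chemokines, had Tnf at 368 CPM, Tnfrsf1b at 615, Tnfsf9 at 97.8 and Fas at 244. The Ppy and Lst1 cluster had 241, 496, 66.3 and 237 CPM for the same genes. The Retnlg cluster had 112, 194, 22.1 and 97.3 CPM. Its leading genes include Cxcr2 of the neutrophil marker list and Ly6g and Mmp8 of the immature neutrophil list. Granulocyte precursor-like cells, led by Camp, Ngp and Elane, had 99.2, 90.2, 11.9 and 41.7 CPM. All 4 genes thus ranked in the same order over these 4 takinib clusters, although the intervals of the first 2 clusters overlap for Fas and those of the last 2 for Tnf. The 175 takinib cells of the Siglecf cluster break that order, with Tnf at 272 CPM, above the Ppy and Lst1 cluster, but Tnfrsf1b at 123, Tnfsf9 at 14.0 and Fas at 36.5 CPM, all below the Retnlg cluster. Tnfrsf1a was ordered otherwise, with its highest value, 156 CPM, in the Retnlg cluster and its lowest, 76.2 CPM, in the precursors.

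**Figure D3:**
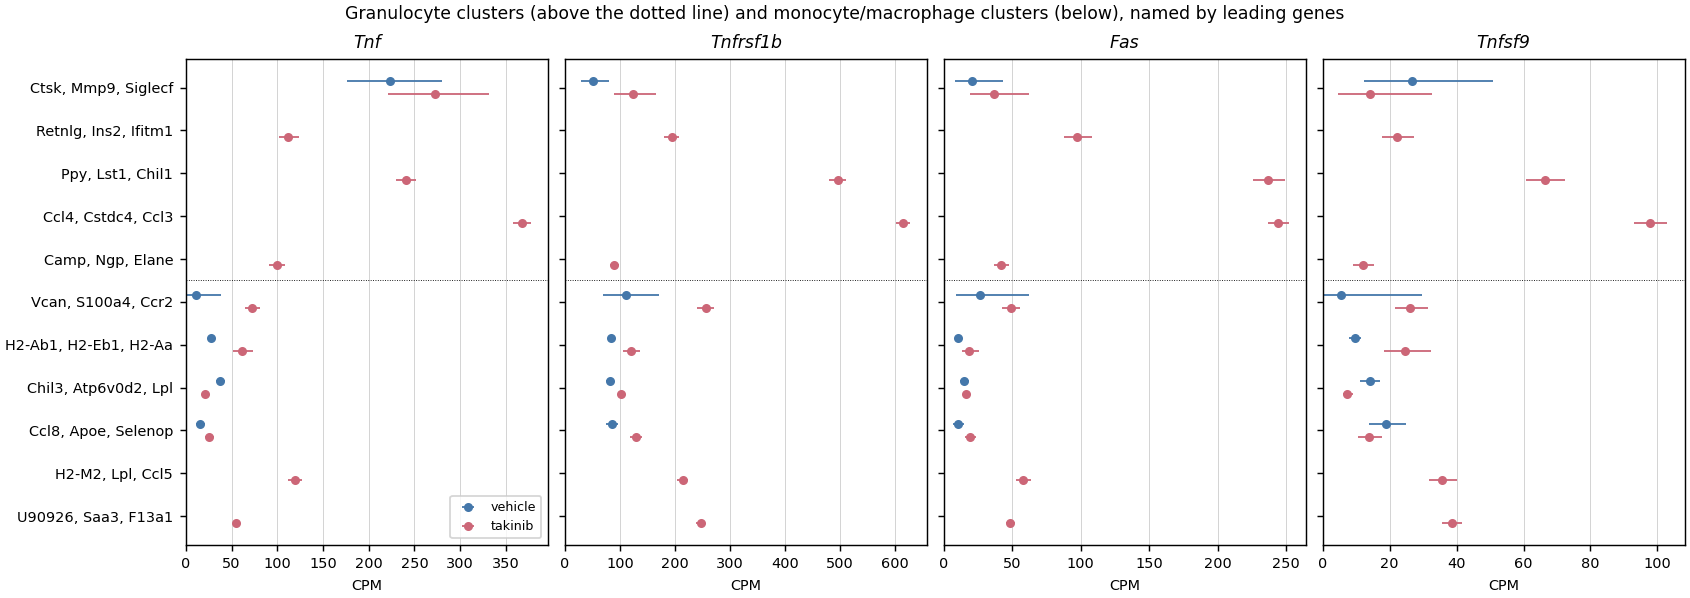
CPM (x axis) of Tnf, Tnfrsf1b, Fas and Tnfsf9 in granulocyte clusters (above the dotted line) and monocyte/macrophage clusters (below it), each named by its 3 leading genes, in vehicle (blue) and takinib (red), with 95% Poisson intervals. The cluster led by Ccl4 and Ccl3 reaches 368 CPM of Tnf and 615 CPM of Tnfrsf1b, and the Siglecf cluster holds similar Tnf in both libraries.

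Monocyte/macrophage-like cells, 5026 in vehicle and 7304 in takinib, had 2 of 9 genes past 2-fold higher, beside 1.82% of all genes, and 0 lower, beside 1.17%. Tnfrsf1b was 83.8 against 185 CPM, 2.21-fold higher [2.1 to 2.33]. Fas was 11.7 against 37.1 CPM, 3.16-fold higher [2.77 to 3.62]. Tnf was 28.7 against 55.1 CPM, 1.92-fold higher [1.76 to 2.1], and Tnfsf9 12.2 against 25.3 CPM, both short of the limit on the log2 scale. Tnfrsf1a, Cd40 and Tnfrsf12a lay within 0.1 of 0 on the log2 scale, at 0.09, -0.07 and -0.04. The summed level of the 9 neutrophil markers was 445 CPM in vehicle against 8740.1 CPM in takinib cells of this class, and after a matching share of neutrophil RNA was subtracted the log2 ratio was 0.86 for Tnfrsf1b, against 1.06, and 0.63 for Fas, against 1.12.

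Different clusters held this class as well. Takinib alone held most cells of the clusters led by U90926, Saa3 and F13a1 (2519 against 8) and by H2-M2, Lpl and Ccl5 (821 against 2). Tnf was 55.1 and 119.6 CPM in these, Tnfrsf1b 247 and 214 and Fas 48.4 and 58.1. In the 3 clusters that both libraries held with 100 cells or more, Tnf differed in both directions. It was 27.2 against 61.7 CPM in the cluster led by the MHC class II genes H2-Ab1, H2-Eb1 and H2-Aa, 2.27-fold higher [1.84 to 2.79]. It was 15.3 against 25.7 CPM in the cluster led by Ccl8, Apoe and Selenop, 1.68-fold higher [1.16 to 2.48]. It was 37.4 against 21.4 CPM in the cluster led by Chil3, Atp6v0d2 and Lpl, genes known from lung macrophages, 1.75-fold lower in takinib [ratio 0.482 to 0.682]. In the order given, these clusters held 2905, 737 and 1291 vehicle cells and 334, 739 and 2048 takinib cells. Within them the log2 ratio of Tnf was 0.95, 0.50 and -0.59. Over these shared clusters together the log2 ratio was -0.09 for Tnf, 0.36 for Tnfrsf1b and 0.33 for Fas. These pooled values do not hold the mix of clusters equal between libraries. With only the vehicle cells that had Xist and no Y-linked UMIs, the log2 ratio of Tnf in the whole class was -0.07, against 0.75. The MHC class II cluster had Tnfsf13b, which encodes the B cell survival factor BAFF, at 9.66 CPM in vehicle and 17.6 in takinib. Cd40, the receptor for CD40 ligand that licenses antigen-presenting cells, was 9.27 against 17.1 CPM in the same cluster.

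In T-like cells, 220 and 1027, Tnf was 11.2 CPM in vehicle (4 UMIs) and 68.8 CPM in takinib (147 UMIs), 6.12-fold higher [2.34 to 22.8]. Fas was 14.0 against 43.5 CPM, 3.10-fold higher [1.28 to 9.77] from 5 vehicle UMIs. Thus 2 of 4 genes with 50 counts were past 2-fold higher, beside 6.17% of all genes, and 0 lower, beside 1.78%. Fas lost this under 8 of 14 alternatives and its log2 ratio was -0.10 with a minimum of 2000 UMIs. Tnfrsf1b was at 121 and 108 CPM, and at 121 and 59.7 CPM with neutrophil RNA subtracted. Its log2 ratio was -0.15, with -0.91 after that subtraction and 0.45 with a minimum of 2000 UMIs. Tnfsf10, which encodes the apoptosis ligand TRAIL, was 42.1 against 17.3 CPM, from 15 and 37 UMIs, so the 50 counts were not reached. T-like cells also held 295 CPM of neutrophil markers in vehicle against 13097 CPM in takinib. With neutrophil RNA subtracted the log2 ratio of Tnf was 1.38, against 1.89, and that of Fas 0.45, against 1.15.

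Dendritic-like cells had few UMIs, and 1 of the 9 genes reached 50. Tnfrsf1b was 44.5 against 107 CPM, 2.40-fold higher [1.38 to 4.40] and past 2-fold higher, beside 5.19% of all genes, with 3.50% of all genes lower. It was 0.83 on the log2 scale, against 1.10, after neutrophil RNA was subtracted. Cd40 was at its highest in this class in both libraries, 73.3 and 71.9 CPM, followed by B-like cells at 47.2 and 48.0 CPM, and the intervals of these classes overlap. In B-like cells 1 gene, Cd40, reached 50 counts and 0 were past 2-fold in either direction, beside 5.03% of all genes higher and 1.49% lower. The ratio of Cd40 in B-like cells was 1.02 [0.593 to 1.82].

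In epithelial-like cells, 1130 and 1073, 3 of 7 genes with 50 counts were past 2-fold higher, beside 3.31% of all genes, and 0 lower, beside 2.49%. Tnf was 10.1 against 53.0 CPM, 5.23-fold higher [4.12 to 6.72]. Tnfrsf1b was 13.2 against 80.7 CPM, 6.13-fold higher [4.98 to 7.61], and Fas 3.82 against 26.3 CPM, 6.88-fold higher [4.69 to 10.4]. The same genes stood at 10.9 against 49.4, 13.6 against 63.2 and 2.97 against 22.8 CPM in the shared cluster led by Cdkn2a, Hmga2 and Krt7. Neutrophil markers moved with them, from 134 to 13445 CPM, and a neutrophil profile scaled to S100a8 and S100a9 would give 31.5, 54.9 and 23.3 CPM of Tnf, Tnfrsf1b and Fas in takinib epithelial-like cells. With it subtracted the log2 ratios were 0.80, 0.75 and -0.04, none past 2-fold. Erythroid-like cells of takinib had 34.3, 78.5 and 23.2 CPM of the same genes.

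**Figure D4:**
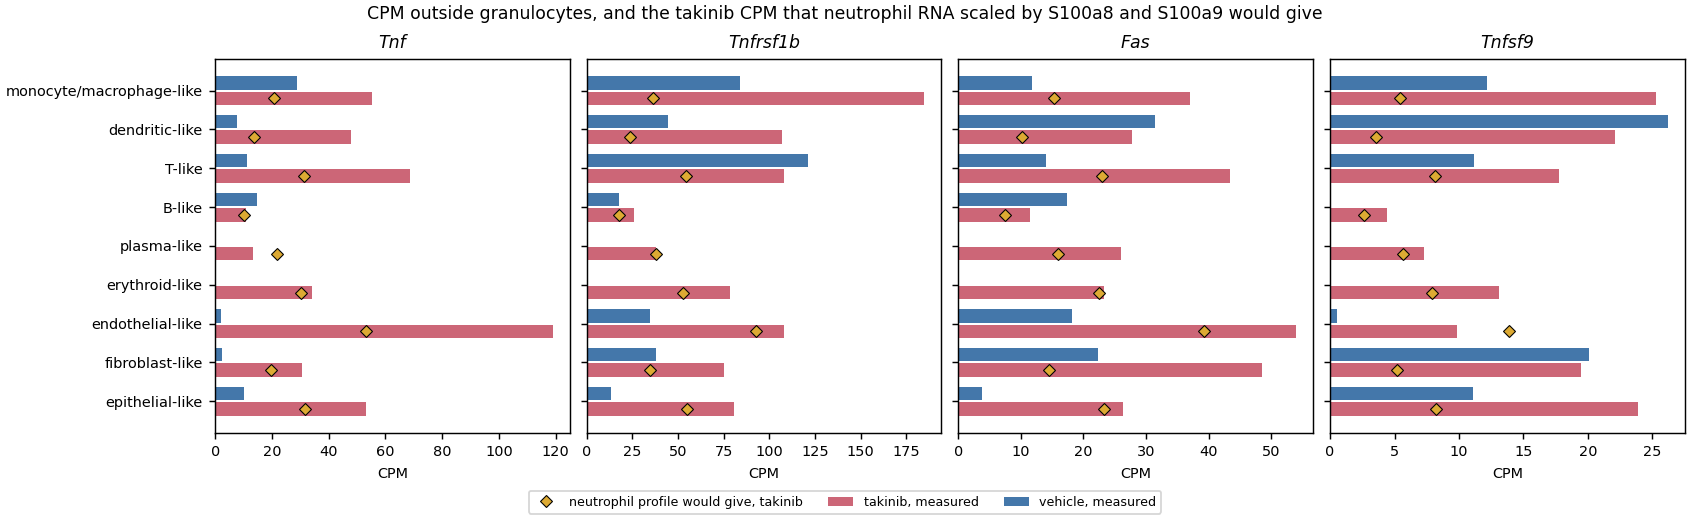
CPM (x axis) of Tnf, Tnfrsf1b, Fas and Tnfsf9 by cell class outside granulocytes in takinib (red bars) and vehicle (blue bars), with the takinib CPM that neutrophil RNA scaled by S100a8 and S100a9 would give (diamonds). In takinib epithelial-like cells the diamond for Fas, 23.3 CPM, lies close to the measured 26.3 CPM, while for Tnfrsf1b in monocyte/macrophage-like cells it is 36.1 of 185 CPM.

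Epithelial-like cells were also where Tnfrsf12a stood highest. It encodes Fn14, the receptor for the ligand TWEAK, and is known as a gene of injured and growing epithelium. It was 296 CPM in vehicle against 265 CPM in takinib, with a ratio of 0.895 [0.848 to 0.946]. Cd40 was 7.89 against 1.72 CPM in epithelial-like cells, 4.59-fold lower in takinib [ratio 0.124 to 0.367], but on the scale with 10 CPM added its log2 ratio was -0.61 and not past 2-fold. Tnfrsf1a was 59.6 against 86.2 CPM, 1.45-fold higher [1.29 to 1.62].

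In fibroblast-like cells, 663 and 320, 1 of 7 genes with 50 counts was past 2-fold higher, beside 4.58% of all genes, and 1 lower, beside 6.14%. Tnf was 2.56 CPM in vehicle (7 UMIs) and 30.7 CPM in takinib (107 UMIs), 12-fold higher [5.61 to 30.5]. With neutrophil RNA subtracted its log2 ratio was 0.85, against 1.70, and takinib fibroblast-like cells had 8476 CPM of neutrophil markers against 232 CPM in vehicle. Tnfsf13b was 24.2 against 6.02 CPM, 4.01-fold lower in takinib [ratio 0.145 to 0.413], from 66 and 21 UMIs, and its log2 ratio was -1.07 after that subtraction. Among alternatives this lower call held in 11 of 15, with log2 ratios from -1.84 to -0.40. Tnfrsf12a was 73.6 against 136 CPM, 1.85-fold higher [1.57 to 2.19], Fas 22.3 against 48.5 CPM and Tnfrsf1a 177 against 132 CPM, none past 2-fold.

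Endothelial-like and perivascular-like cells had too few takinib cells, 88 and 14, for a ratio, so their values stand side by side. Tnfrsf1a was high in both in vehicle, 210.1 and 221 CPM, with overlapping intervals, and 175 CPM in takinib endothelial-like cells. Tnfsf10 was 52.1 CPM in vehicle against 45.8 CPM in takinib endothelial-like cells, where its intervals [42.4 to 63.4] and [30.4 to 66.2] overlap. Tnf was 2.09 CPM in vehicle (4 UMIs) and 119 CPM in takinib (73 UMIs) endothelial-like cells, with a UMI in 4 of 671 and 18 of 88 cells. These takinib cells also held 23076 CPM of neutrophil markers, and the scaled neutrophil profile would give 53.2 CPM of Tnf. After subtraction, with the remaining UMIs scaled anew to CPM, Tnf was at 80.3 CPM.

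**Figure D5:**
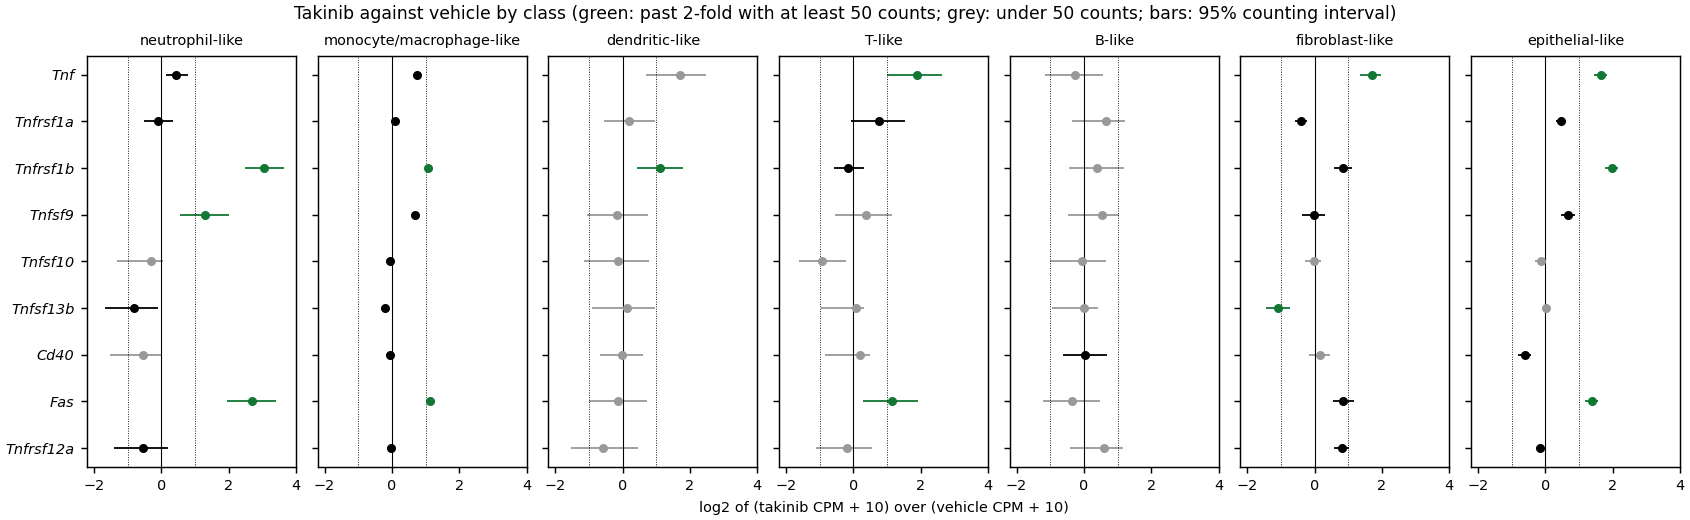
Log2 ratio of takinib over vehicle (x axis, CPM plus 10) for the 9 genes in 7 cell classes (100 cells or more per library), with 95% counting intervals. Green points are past 2-fold with at least 50 counts, grey points have under 50 counts, and the dotted lines mark 2-fold. Tnfrsf1b in neutrophil-like cells is at 3.04, and Tnfsf13b in fibroblast-like cells is the only green point below 0.

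Over the 7 classes, 36 of 63 pairs of gene and class reached 50 counts, 12 were past 2-fold higher and 1 lower. A pair could reach 50 counts through 1 library alone, where the gene is high or where more UMIs were summed, so these counts are a description. Reaching it that way did not by itself make a pair differ. Cd40 in B-like cells had 19 vehicle and 54 takinib UMIs and a ratio of 1.02. In 5 further lists, 77 genes of the pathway were read in the same way. They were chosen with earlier results of these data known.

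The 10 genes known to be induced by TNF through NF-kB were the list with the most genes past 2-fold higher. These were 6 of 10 in epithelial-like, fibroblast-like and monocyte/macrophage-like cells each. In neutrophil-like cells they were 4 of 10, in T-like cells 4 of 6 and in dendritic-like cells 2 of 4 with 50 counts, while B-like cells had 0 of 4. In these classes, in the same order, 3.31%, 4.58%, 1.82%, 4.49%, 6.17%, 5.19% and 5.03% of all genes were past 2-fold higher. The median of the list log2 ratio was 1.15, 1.54, 1.09, 0.86, 1.33, 1.09 and 0.81, beside -0.10, -0.08, -0.01, -0.38, -0.02, 0.08 and 0.08 over all genes. Nfkbia, which encodes the NF-kB inhibitor IkBa, was 83.2 against 552 CPM in epithelial-like cells and 103 against 528 CPM in fibroblast-like cells. Sod2, the mitochondrial superoxide dismutase, was 139 against 672 CPM in monocyte/macrophage-like cells and 109 against 951 CPM in neutrophil-like cells. Cxcl1, a neutrophil-attracting chemokine, was 16.8 against 301 CPM and Tnfaip6 13.9 against 184 CPM in fibroblast-like cells. Tnfaip6 was past 2-fold lower in epithelial-like cells, 30.4 against 8.78 CPM. Neutrophil markers moved with this list in every class named above. With neutrophil RNA subtracted the genes past 2-fold higher were 2 in place of 6 in epithelial-like cells (Nfkbia and Tnfaip2) and 1 in place of 4 in T-like cells (Nfkbia). They were 5 in place of 6 in fibroblast-like and in monocyte/macrophage-like cells and 2 of 2 in dendritic-like cells. After that subtraction the log2 ratio of Cxcl1 in fibroblast-like cells was 3.61 and that of Sod2 in monocyte/macrophage-like cells 2.15.

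Receptor signalling genes past 2-fold were few outside neutrophil-like cells. Of 22 genes in that list Traf1, an adaptor of TNFR2, was past 2-fold higher in neutrophil-like cells (17.2 against 259.7 CPM), in monocyte/macrophage-like cells (8.82 against 55.7 CPM) and in fibroblast-like cells (2.56 against 21.2 CPM). The scaled neutrophil profile would give 17.2 of the 21.2 CPM in fibroblast-like and 18.1 of the 55.7 CPM in monocyte/macrophage-like cells, and after subtraction the log2 ratio of Traf1 was 0.19, no longer past 2-fold, and 1.43. Neutrophil-like cells also had Birc3 and Cflar, both survival genes, higher and Rbck1, Casp8 and Cyld lower past 2-fold. That is 3 of 20 genes in each direction, beside 4.49% of all genes higher and 15.9% lower in this class, so the lower count is near the share over all genes. In epithelial-like cells 0 of 21 genes of this list passed in either direction, beside 3.31% of all genes higher and 2.49% lower, so these counts are near those shares. Birc3 was highest there at a log2 ratio of 0.88 and Rbck1 lowest at -0.60.

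In the list of TNF release and transcript control, Zfp36 was past 2-fold higher in B-like, T-like, epithelial-like and fibroblast-like cells. It encodes tristetraprolin, which promotes decay of the Tnf transcript, and was 83.6 against 359.7 CPM in epithelial-like and 89.9 against 378 CPM in T-like cells. With neutrophil RNA subtracted its log2 ratio was 1.45 in B-like, 1.63 in T-like and 1.45 in epithelial-like cells, and 0.83 in fibroblast-like cells, there no longer past 2-fold. Zfp36l1 was higher and Zfp36l2 lower past 2-fold in neutrophil-like cells, 437 against 1122 CPM and 835 against 272 CPM. Adam17, the protease that sheds TNF, had the highest ratio of this list in monocyte/macrophage-like cells, 76.1 against 108 CPM and not past 2-fold. Timp3, which inhibits ADAM17, was 3390.1 against 1682 CPM in fibroblast-like cells, past 2-fold lower at a log2 ratio of -1.01 and at -0.91 after the same subtraction.

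Among the other TNF-family receptors 3 of 6 with 50 counts were past 2-fold lower in T-like cells, beside 1.78% of all genes. They are the costimulatory receptors Tnfrsf4 (OX40), 213 against 40.7 CPM, Tnfrsf18 (GITR), 219 against 61.8 CPM, and Tnfrsf9, the receptor for 4-1BB ligand, 143 against 59.9 CPM. The makeup of the class moved with them: its 8 T cell markers summed to 2923 CPM in vehicle against 2360.4 in takinib and its 6 natural killer cell markers to 185 against 559 CPM, and their part in these values was not tested. Tnfrsf23, a receptor that lacks a death domain, was the 1 higher there, with 0 vehicle UMIs, where 3 UMIs would be 8.42 CPM, and 29.9 CPM in takinib, of which the neutrophil profile would give 18.0 CPM. It was also higher in neutrophil-like cells, 74.3 against 171 CPM, where Tnfrsf13b, Relt and Tnfrsf22 were past 2-fold lower. Of the 11 receptors with 50 counts in that class, 1 was higher and 3 lower, beside 4.49% and 15.9% of all genes. In fibroblast-like cells Tnfrsf19 was 81.7 against 7.74 CPM. Among ligands in the same cells Tnfsf8 was 45.8 against 4.02 CPM and Tnfsf11, which encodes RANKL, 3.30 against 50.8 CPM, past 2-fold lower and higher.

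Likeness to other genes was read over 20 sums of class and library as Pearson's r of log2 CPM plus 10, with no test, since the points share libraries, depth and free RNA. The gene most like Tnf was Trem1 (r 0.96), followed by Il1rn and Csf3r (both 0.94), all expressed by neutrophils. After neutrophil RNA was subtracted r with Trem1 was 0.56. Fas was most like Casp4 (0.91), Mefv (0.87) and Irak3 (0.86), and Tnfrsf1b most like Fyb (0.88), Gm11613 (0.86) and Pfkfb3 (0.84). Cd40 was most like H2-DMb2, Il4i1 and Casp9 (0.89, 0.89 and 0.88), the first of these an MHC class II pathway gene. Tnfrsf12a was most like Scara3, Sema3c and Echdc2 (0.96, 0.96 and 0.95), and Tnfrsf1a most like App, Selenon and Wdr45b (0.95, 0.92 and 0.89). Tnfsf10 was like Tbc1d30 and S1pr1 (0.86 for each), Tnfsf13b most like Cxcl14, Gpc3 and Pi16 (0.88, 0.83 and 0.81), and Tnfsf9 most like Chmp4b, Sesn2 and Gabarap (0.88, 0.84 and 0.80). Among the 9 genes themselves the highest r was between Tnfrsf1b and Fas (0.81), followed by Tnf with Tnfrsf1b (0.73) and Tnf with Fas (0.72).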

How the data were processed

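Raw UMI counts per gene and barcode were deposited by the authors for 1 vehicle and 1 takinib library, made with Cell Ranger 4 and 6.1.1 per the file headers. The submitters' processing notes name Cell Ranger 2.1.1 and mm10. The vehicle matrix listed 704261 barcodes and the takinib matrix 34158, none of these under 500 UMIs, so takinib had been filtered before deposit. Total counts were 80850334 and 139292875 UMIs.

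Kept were barcodes with 1000 UMIs and 500 genes or more and a mitochondrial share up to 20%. Scrublet (expected 6%) removed 314 vehicle barcodes by its automatic threshold. In takinib that threshold marked 0.00373%, so the 1607 highest-scoring barcodes were removed. Both libraries were clustered together (scanpy 1.11.5, Leiden resolution 1) on 1982 variable genes, with the 9 genes and the pathway lists left out. Clusters were named from marker lists by a rule set after the data were seen, and monocyte and macrophage clusters were joined for the same reason. No correction between libraries was made.

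Counts were summed per class and library and scaled to CPM. Ratios used classes of at least 100 cells in each library and a pseudocount of 10 CPM, which understates changes of low genes. Intervals at 95% are exact Poisson for CPM, conditional Clopper-Pearson for ratios and exact binomial for shares. The limit for a count of 0 is 3 counts. With 1 library per group no test was run. The neutrophil subtraction removes, per class, the neutrophil-like profile of that library scaled to S100a8 and S100a9. Values below 0 are then set to 0 and the remaining UMIs are scaled anew to CPM, which raises genes that neutrophils lack.

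The 9 genes and the lists were chosen with earlier results of these data known. Named are the 9 genes, in each list and class the genes of highest and lowest ratio and those past 2-fold (in part here), and the 3 most alike per gene, of which 1 is not reported here. Ratios and intervals were tested on simulated data. Processing alternatives, 16 planned and 2 added, are given at the end.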

Additional observations from a re-analysis of the deposited data

How the results depend on the processing

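The log2 ratio of Tnf over all kept cells, 2.03, was 1.77 with a minimum of 2000 UMIs, 2.44 and 1.21 with a pseudocount of 1 and 50 CPM, 2.48 with cells thinned to 1000 UMIs, 2.16 centred on a median of 0 and 1.41 with vehicle cells that had Xist and no Y-linked UMIs. The 12 pairs of the 9 genes and a class past 2-fold higher were 3 with a pseudocount of 50 CPM and 7 in shared clusters (100 cells or more per library). The 1 lower pair became 4 with a pseudocount of 1 CPM and 0 with 50 CPM, with thinning and with a minimum of 200 counts. For the pathway lists, 41 higher pairs became 23 with a pseudocount of 50 CPM and 27 in the shared clusters, and 16 lower pairs became 28 and 6 with a pseudocount of 1 and 50 CPM, 10 centred and 9 with a minimum of 200 counts. Among the 13 pairs past 2-fold, the direction turned for 3, for Fas in T-like cells, -0.10 with 2000 UMIs and -0.13 with a mitochondrial limit of 10%, for Fas in epithelial-like cells, -0.04 with neutrophil RNA subtracted, and for Tnfsf9 in neutrophil-like cells, -0.61 in the shared cluster. Of the 23 other pairs with 50 counts 11 turned under some alternative, among them Tnf in monocyte/macrophage-like cells (0.75), at -0.09 in the shared clusters and -0.07 with the Xist cells, and Tnfsf9 there (0.67), at -0.10 in the shared clusters, and so did 18 of the 27 pairs under 50 counts. The shared clusters remove cells by construction, and in monocyte/macrophage-like cells their mix still differs between libraries. Otherwise the cause was not tested. Of 13 pairs past 2-fold, 10 could be valued with neutrophil RNA subtracted and 2 stayed past it, Tnf in T-like and Tnfsf13b in fibroblast-like cells. Tnfrsf1b in neutrophil-like cells had a log2 ratio above 1 in 11 of 11 alternatives, from 1.14 to 3.42, the lowest in the shared cluster, where its 44 UMIs do not reach the 50 counts. Allowing 1 mismatch moved the genes with a kappaB match in a promoter from 0 to 3. The shared clusters and a subtraction of the vehicle shallow-barcode profile were chosen after seeing the data. Some alternatives left a class with too few cells for a value, so totals over all classes were not given there. No paired analysis was possible because each group has 1 library. Genes under 50 counts in a class, 27 of 63 pairs, are limited by depth.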
